A study of Homo sapiens with 12 samples.

Results

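In LOX-IMVI BR melanoma cells, cultures given 6-thio-dG were set directly against cultures given BIBR1532, 2 compounds directed at telomerase. The comparison was defined by line and compound and rests on 4 of the 12 libraries of the series, 2 with 6-thio-dG at 5 µM and 2 with BIBR1532 at 25 µM. The 2 control libraries of the line are given beside them, and the same 2 compounds in A375 cells (4 libraries) are used to test where the lines differ. All are human metastatic melanoma lines grown in 6-well plates, and the labels call the replicates biological without naming separate cultures, so p-values measure the spread between these libraries. RNA was isolated with TRIzol and made into libraries that do not keep the strand. Neither what BR stands for nor the control's vehicle or the hours of exposure are known here. The doses differ, so every difference below is between these 2 treatments and not between the compounds at a matched dose.

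Telomerase adds telomeric repeats to chromosome ends, with TERT as its catalytic protein and TERC as its RNA template. 6-thio-dG is a thiopurine deoxynucleoside that cells convert to a nucleotide which telomerase can place into telomeric DNA. BIBR1532 is not a nucleoside: it is a small molecule that inhibits the catalytic activity of TERT. LOX-IMVI is an amelanotic melanoma line.

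The 6-thio-dG libraries held 20941572 and 24818133 counts, the BIBR1532 libraries 15659238 and 23097771, and the control libraries 22700404 and 24503867. Long noncoding genes with NONCODE identifiers took 7.41% and 7.16% of the counts with 6-thio-dG, 4.76% and 4.89% with BIBR1532, and 4.47% and 4.61% in the control. Replicates of LOX-IMVI BR lay close together: 3 of 11104 genes differed by more than 2-fold between the 6-thio-dG libraries and 16 of 11269 between the BIBR1532 libraries, among genes at a mean of at least 5 CPM, counts scaled to the adjusted library total. In A375 the replicates lay apart, by more than 2-fold in 3003 of 11720 such genes with 6-thio-dG and in 2608 of 11768 in the control, against 11 of 11747 with BIBR1532. The fit used all 12 libraries, whose estimated spread between replicates was 25.8%, while the 6 libraries of LOX-IMVI BR alone gave 4.55%. The p-values below rest on the larger spread.

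The cells carried little of the pigment programme in both treatments. TYR, the rate-limiting enzyme of melanin synthesis, had 0.0401 and 0 CPM with 6-thio-dG and 0 CPM in both BIBR1532 libraries. PMEL, a melanosome matrix protein, ranged from 0.0685 to 0.281 CPM over the 4 libraries. PAX3, a transcription factor of the melanocyte lineage, was at 40.8 and 42.0 CPM with 6-thio-dG and 48.9 and 42.0 CPM with BIBR1532. The 7 leukocyte markers summed to 119.5 and 137 CPM with 6-thio-dG, 218 and 231 CPM with BIBR1532 and 94.0 and 94.3 CPM in the control, nearly all of it CD68, and of these CD3E of T cells was listed at 0 in all 4 libraries of the compounds. The 5 endothelial markers summed to 1.88 and 1.34 CPM with 6-thio-dG, 5.00 and 4.96 CPM with BIBR1532 and 5.62 and 4.92 CPM in the control, with PECAM1 listed at 0 in the same 4 libraries. COL1A2, a chain of type I collagen, was at 0.922 and 1.59 CPM with 6-thio-dG and 1.99 and 1.17 CPM with BIBR1532. The part of other cell types in the differences below was not tested. Because RNA was measured in bulk, fewer cells of a type and less RNA per cell cannot be told apart in any difference below.

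Of 29114 genes tested with edgeR, 5999 (20.6%) differed between the treatments at a Benjamini-Hochberg adjusted p under 0.05, the threshold for a called difference throughout. Calls were 2881 higher with 6-thio-dG (9.9%) and 3118 lower (10.7%). Among the 14419 genes named by a symbol, 2926 were called (20.3%), 798 higher (5.53%) and 2128 lower (14.8%). Of 14675 NONCODE genes 3068 were called (20.9%), 2082 higher (14.2%) and 986 lower (6.72%). The median log2 fold change of 6-thio-dG over BIBR1532 was 0.00 over all genes, −0.22 over symbol-named genes and 0.34 over NONCODE genes. The excess of lower calls among symbol-named genes depended on the scaling: with upper-quartile factors, which moved the median of all genes to 0.34, 1331 were higher and 1346 lower. The largest differences were mostly on the lower side, with 17 symbol-named genes called higher and 190 lower by at least 8-fold among genes at 5 CPM or more in the higher group. Leaving out 1 library moved the 5999 calls to 2447 without 6-thio-dG replicate 1, 2504 without 6-thio-dG replicate 2, 2770 without BIBR1532 replicate 1, 2448 without BIBR1532 replicate 2, 9432 without A375 6-thio-dG replicate 1 and 9432 without A375 6-thio-dG replicate 2. Across 5 equal bins of transcript GC content, the median log2 fold change was −0.42, −0.32, −0.22, −0.10 and 0.01 from low to high GC. With that trend removed, 2111 symbol-named genes were called higher and 2397 lower.

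**Figure D1:**
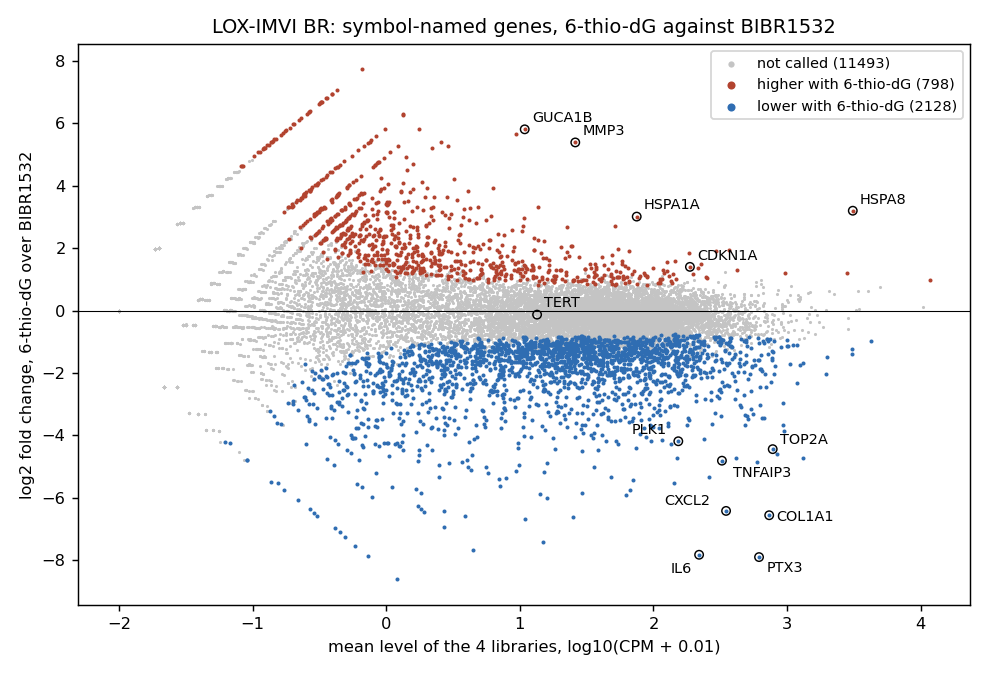
Log2 fold change of 6-thio-dG over BIBR1532 (vertical axis) against mean level in the 4 libraries (horizontal axis, log10 CPM) for the symbol-named genes tested in LOX-IMVI BR. Red points are the 798 genes called higher with 6-thio-dG, blue points the 2128 called lower and grey points those not called, and the labelled PTX3, IL6 and COL1A1 lie far below 0 while HSPA8 and HSPA1A lie above it.

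**Figure D2:**
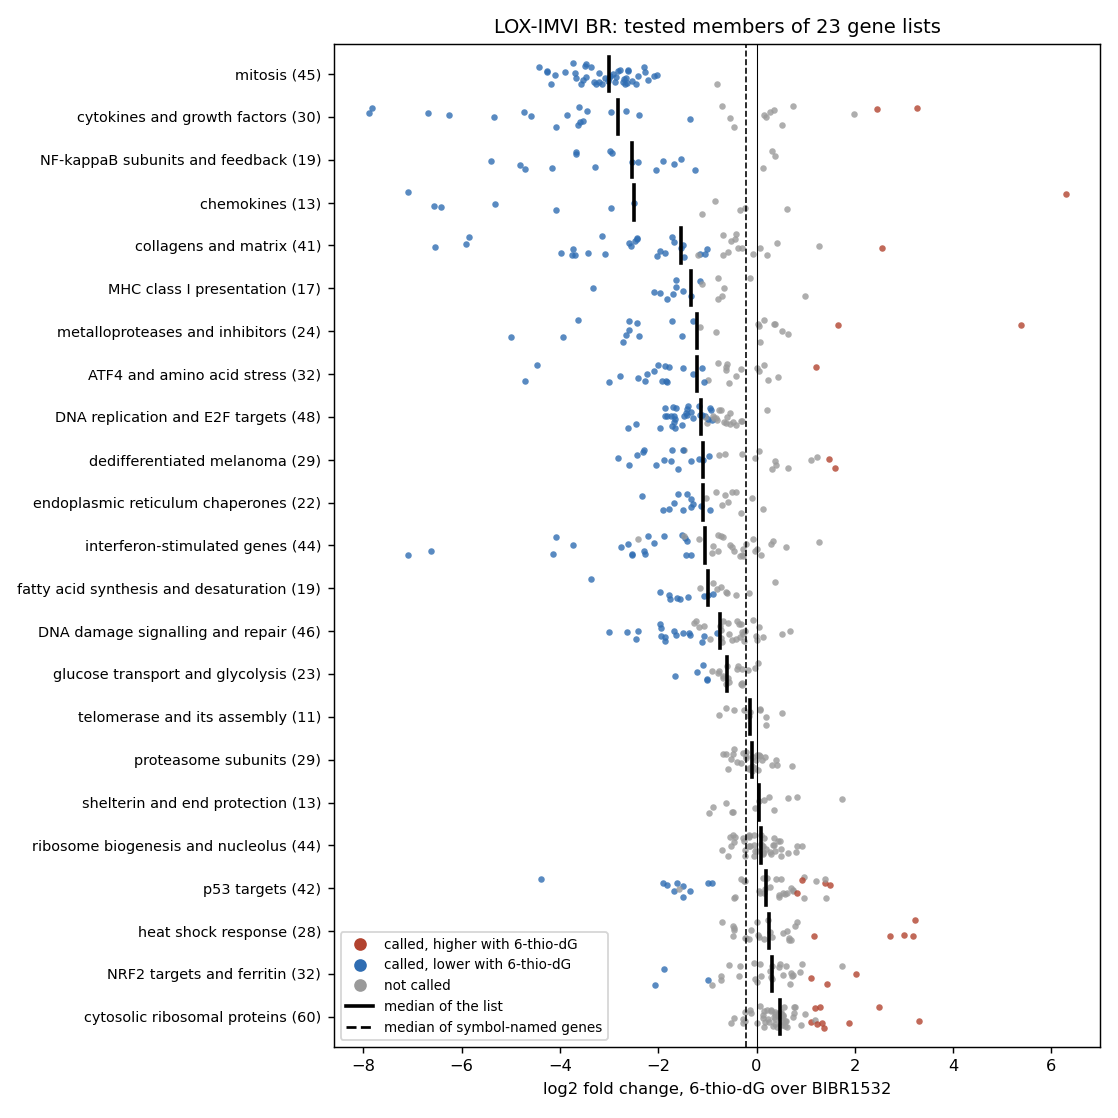
Log2 fold change of 6-thio-dG over BIBR1532 for the tested members of 23 gene lists in LOX-IMVI BR, 1 point per gene. Red is called higher, blue called lower and grey not called, the black bar is the list's median and the dashed line the median of symbol-named genes (−0.22). Mitosis (median −3.0), cytokines (−2.81), NF-kappaB (−2.53) and chemokines (−2.50) lie farthest below it.

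Genes that carry cells through mitosis were far lower with 6-thio-dG than with BIBR1532. Of 45 tested members of the mitosis list, 44 were called lower and none higher, against 14.8% lower among all symbol-named genes, and the list's median log2 fold change was −3.0. Their summed level was 1321 and 1438 CPM with 6-thio-dG, 9558 and 10052 CPM with BIBR1532, and 6617 and 6511 CPM in the control. PLK1, a kinase that drives mitotic entry and spindle formation, had 15.2 and 16.7 CPM with 6-thio-dG, 298 and 283 CPM with BIBR1532 and 238 and 238 CPM in the control. Both 6-thio-dG libraries were below all others, and the log2 fold change was −4.18 ± 0.31 (SE; adjusted p = 1.72e-06). KIF20A, a kinesin of the central spindle, had 12.3 and 14.7 CPM with 6-thio-dG, 236 and 281 CPM with BIBR1532 and 208 and 206 CPM in the control (log2 fold change −4.26 ± 0.31, adjusted p = 1.72e-06). AURKA, the centrosome kinase, had 19.2 and 17.8 CPM with 6-thio-dG, 242 and 235 CPM with BIBR1532 and 126 and 124 CPM in the control. For AURKA both BIBR1532 libraries also stood above the control, but that difference was not called (adjusted p = 0.077). CCNB1, the cyclin of mitotic entry, fell to 13.4 and 14.3 CPM with 6-thio-dG, against 176 and 179 CPM with BIBR1532 (log2 fold change −3.68 ± 0.33, adjusted p = 5.39e-06). TOP2A, which untangles DNA for chromosome segregation, had 66.2 and 71.4 CPM with 6-thio-dG, 1431 and 1552 CPM with BIBR1532, and 805 and 773 CPM in the control (log2 fold change −4.44 ± 0.66, adjusted p = 0.000375). The proliferation marker MKI67 had 159 and 203 CPM with 6-thio-dG, against 786 and 877 CPM with BIBR1532 (log2 fold change −2.20 ± 0.60, adjusted p = 0.018). The MKI67 call was lost with any 1 of the 4 libraries left out and without both A375 controls. It was also lost in fits of symbol-named genes alone and of the compound libraries of both lines without any control, but not in the 4 compound libraries of LOX-IMVI BR alone. BUB3, a spindle checkpoint protein, was the member not called, at 279 and 274 CPM with 6-thio-dG and 483 and 477 CPM with BIBR1532. With any 1 of the 4 libraries left out, 38 to 43 members were called lower.

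Many mitotic genes are repressed outside mitosis through a cell cycle homology region, read TTTGAA, close to the transcription start, which the DREAM and MuvB complexes contact. The letters TTTGAA stood on either strand of the 250 bases before the start in 20 of 38 mitosis promoters (52.6%), against 951 of 11017 promoters of tested genes (8.63%) and 13.6% of all promoters in the RefSeq table. The windows below are 90 bases from 3 mitosis promoters of RefSeq on GRCh38.p14, plus strand. They are shown because they hold a match and their genes fell with 6-thio-dG. A match is in capitals, and the CDC20 window holds 1 of its 2 matches.
PLK1, chr16:23678799-23678888: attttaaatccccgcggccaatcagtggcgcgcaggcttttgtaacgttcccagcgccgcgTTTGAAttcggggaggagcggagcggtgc
CCNB2, chr15:59105056-59105145: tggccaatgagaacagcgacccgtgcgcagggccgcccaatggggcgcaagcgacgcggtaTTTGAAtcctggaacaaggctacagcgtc
CDC20, chr1:43358874-43358963: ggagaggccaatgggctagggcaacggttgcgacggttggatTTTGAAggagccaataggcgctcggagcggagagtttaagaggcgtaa
CCNB2, a B-type cyclin, had 6.50 and 6.48 CPM with 6-thio-dG, against 64.2 CPM in both BIBR1532 libraries (log2 fold change −3.31 ± 0.31, adjusted p = 8.93e-06). CDC20, which activates the anaphase-promoting complex, had 39.7 and 45.9 CPM with 6-thio-dG, against 266 and 269 CPM with BIBR1532 (log2 fold change −2.65 ± 0.36, adjusted p = 0.000155). KIF20A and CCNB1 held no such match in their windows although both fell, and AURKA had no promoter entry. A match is a run of letters only, and binding there was not measured.

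Many genes of S phase and fewer of DNA repair were called lower as well. In the list of replication genes and E2F targets, 30 of 48 members were called lower (62.5%) and none higher (median log2 fold change −1.13). Among symbol-named genes 14.8% were called lower. With upper-quartile factors 19 replication members were called lower. RRM2, a subunit of ribonucleotide reductase that supplies deoxynucleotides, had 87.0 and 92.9 CPM with 6-thio-dG, 528 and 571 CPM with BIBR1532 and 303 and 284 CPM in the control (log2 fold change −2.61 ± 0.31, adjusted p = 4.72e-05). DNMT1, the maintenance DNA methyltransferase, had 70.5 and 71.0 CPM with 6-thio-dG, against 241 and 272 CPM with BIBR1532 (log2 fold change −1.86 ± 0.28). In the list of DNA damage signalling and repair, 17 of 46 members were called lower (37.0%) and none higher (median −0.73). FANCD2, the Fanconi anaemia protein that marks crosslinks, had 9.30 and 10.7 CPM with 6-thio-dG, 59.3 and 65.1 CPM with BIBR1532 and 30.1 and 27.4 CPM in the control (log2 fold change −2.64 ± 0.35, adjusted p = 0.000145). BRIP1, a helicase partner of BRCA1, had 13.1 and 12.6 CPM with 6-thio-dG, against 97.6 and 108 CPM with BIBR1532 (log2 fold change −3.0 ± 0.48, adjusted p = 0.0006). H2AFX, the histone variant phosphorylated at DNA breaks, had 55.6 CPM in both 6-thio-dG libraries, against 309 and 285 CPM with BIBR1532 (log2 fold change −2.42 ± 0.34). Leaving out 6-thio-dG replicate 1, 6-thio-dG replicate 2, BIBR1532 replicate 1 or BIBR1532 replicate 2 left 11, 15, 18 and 15 replication members and 6, 7, 9 and 8 repair members called lower. MSH3, a mismatch repair protein, was called lower, but not with any 1 of the 4 libraries left out.

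Cell cycle inhibitors did not move together. CDKN2C, an inhibitor of the CDK4 and CDK6 kinases, had 8.14 and 8.28 CPM with 6-thio-dG, 94.8 and 96.0 CPM with BIBR1532 and 86.0 and 88.2 CPM in the control (log2 fold change −3.54 ± 0.38, adjusted p = 2.29e-05). CDKN2B, a paralogue, had 21.0 and 20.6 CPM with 6-thio-dG, 201 and 163 CPM with BIBR1532 and 87.5 and 85.3 CPM in the control (log2 fold change −3.13 ± 0.38, adjusted p = 6.17e-05). CDKN1A, the p53-induced inhibitor p21, was higher instead, at 276 and 268 CPM with 6-thio-dG, 95.4 and 111 CPM with BIBR1532 and 54.6 and 51.3 CPM in the control. Its 6-thio-dG libraries were above all others (log2 fold change 1.40 ± 0.34, adjusted p = 0.00943), but the call was lost with any 1 of the 4 libraries left out.

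**Figure D3:**
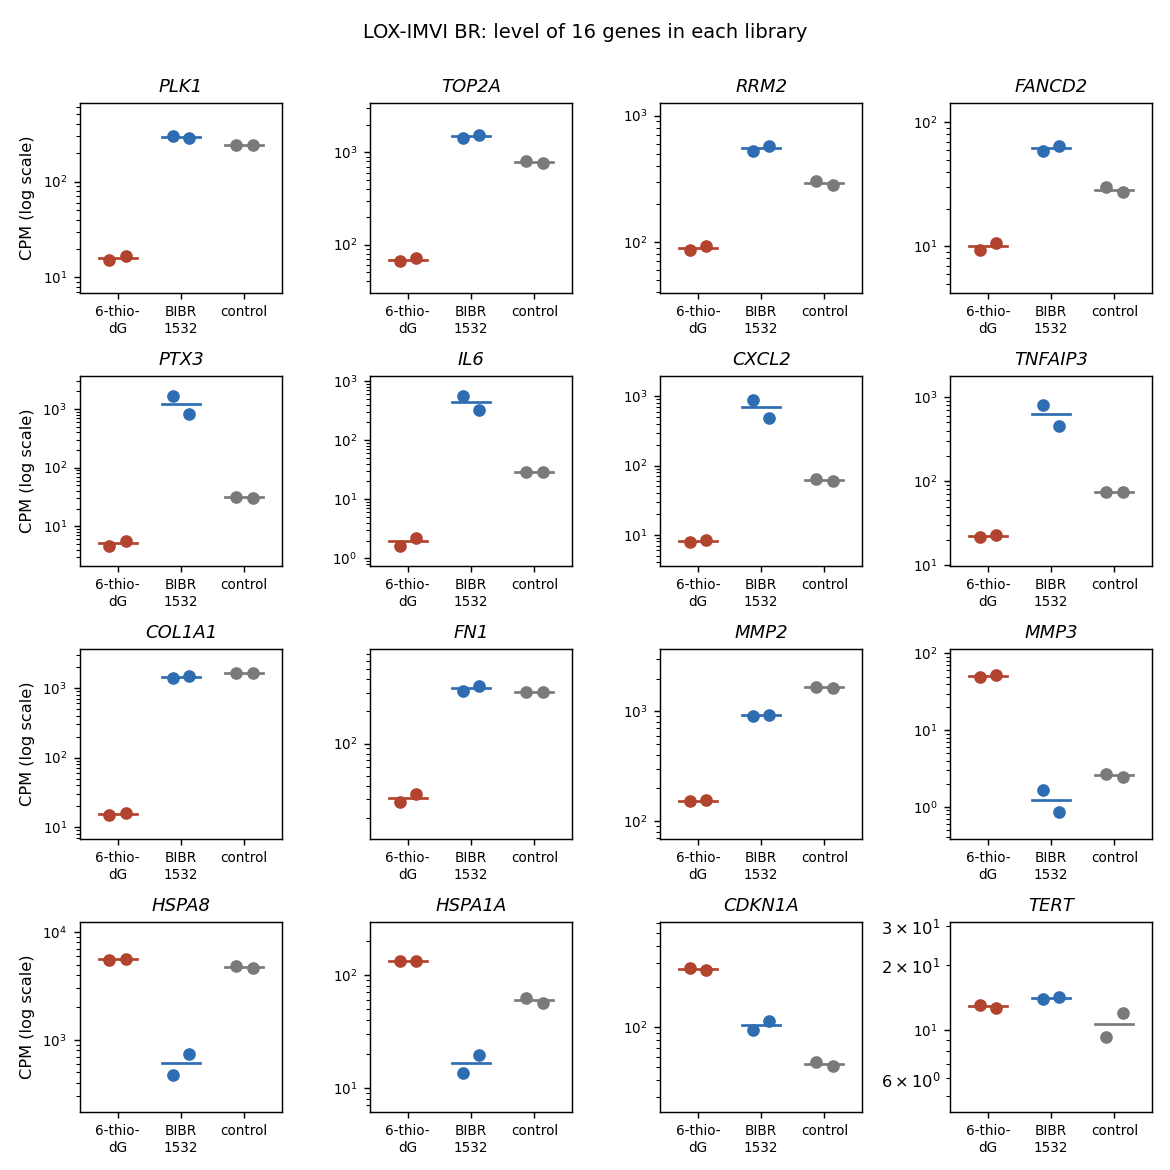
Level of 16 genes in each library of LOX-IMVI BR (CPM, log axis), with 6-thio-dG left of BIBR1532 and the control last. Each point is 1 library and each short line the mean of 2. PLK1, TOP2A, RRM2 and FANCD2 are lowest with 6-thio-dG, PTX3, IL6, CXCL2 and TNFAIP3 stand highest with BIBR1532, and HSPA8 stands lowest with BIBR1532, while TERT spans 9.29 to 14.2 CPM.

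Most secreted inflammatory factors were called lower with 6-thio-dG than with BIBR1532. Of 30 tested cytokines and growth factors, 18 were called lower (60%) and 2 higher (6.67%), against 14.8% and 5.53% of symbol-named genes. Their median log2 fold change was −2.81. The members together had 861 and 880 CPM with 6-thio-dG, 13864 and 9253 CPM with BIBR1532 and 2245 and 2159 CPM in the control. IL6, a cytokine of the acute phase response, had 1.64 and 2.21 CPM with 6-thio-dG, 555 and 319 CPM with BIBR1532 and 28.7 CPM in both controls. The 3 groups did not overlap, with 6-thio-dG lowest and BIBR1532 highest, and the log2 fold change was −7.82 ± 0.42 (adjusted p = 2.61e-07). PTX3, a secreted pentraxin of innate immunity, had 4.69 and 5.62 CPM with 6-thio-dG, 1642 and 814 CPM with BIBR1532 and 31.9 and 30.2 CPM in the control (log2 fold change −7.89 ± 0.46, adjusted p = 3.95e-07). IL1B, a pyrogenic cytokine, had 61.0 and 72.1 CPM with 6-thio-dG, 1876 and 1348 CPM with BIBR1532 and 422 and 403 CPM in the control (log2 fold change −4.60 ± 0.31, adjusted p = 1.19e-06). LIF, an IL6-family cytokine, had 11.9 and 13.3 CPM with 6-thio-dG, 583 and 437 CPM with BIBR1532 and 84.8 and 80.5 CPM in the control (log2 fold change −5.34 ± 0.38). CSF2, which supports myeloid cells, differed in its pattern. It had 0.201 and 0.207 CPM with 6-thio-dG, 29.4 and 14.0 CPM with BIBR1532 and 0.10 and 0.273 CPM in the control, so that the BIBR1532 libraries alone stood apart (log2 fold change −6.69 ± 0.55, adjusted p = 3.25e-06). The 2 members called higher were rare: TNFSF10, the death ligand TRAIL, had 47 counts with 6-thio-dG and 3 with BIBR1532, a ratio of 10.4 with a 95% counting interval of 3.36 to 52.5, and was not called by DESeq2 or without 6-thio-dG replicate 2 or BIBR1532 replicate 2. BMP4 had 0.842 and 0.759 CPM with 6-thio-dG, against 0.274 and 0.0468 CPM with BIBR1532, a call lost without 6-thio-dG replicate 1, 6-thio-dG replicate 2 or BIBR1532 replicate 2.

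Chemokines, which attract leukocytes, and the NF-kappaB pathway went the same way as the cytokines. NF-kappaB is a transcription factor held in the cytoplasm by IkappaB proteins, and many of its targets feed back on it. Of 13 chemokines tested, 7 were called lower (53.8%) and 1 higher (7.69%, median −2.50). Of 19 NF-kappaB subunits and feedback genes 16 were called lower (84.2%) and none higher (median −2.53). Among symbol-named genes 14.8% were called lower and 5.53% higher. CXCL2, a neutrophil attractant, had 7.86 and 8.31 CPM with 6-thio-dG, 889.9 and 491 CPM with BIBR1532 and 63.1 and 59.6 CPM in the control (log2 fold change −6.41 ± 0.52, adjusted p = 2.9e-06). CXCL3, its close paralogue, had 2.45 and 2.24 CPM with 6-thio-dG, 118 and 69.0 CPM with BIBR1532 and 13.6 and 13.8 CPM in the control (log2 fold change −5.31 ± 0.37). CXCL10, an interferon-induced chemokine, had no counts with 6-thio-dG and was at least 15.0-fold lower than with BIBR1532, taken against 3 counts over the group. CXCL6, the chemokine called higher, had 26 counts with 6-thio-dG and none with BIBR1532 and was at least 5.78-fold higher by the same limit, but it was not called by DESeq2 or without either BIBR1532 library. TNFAIP3, the deubiquitinase A20 that limits NF-kappaB signalling, had 21.7 and 23.1 CPM with 6-thio-dG, 808 and 449 CPM with BIBR1532 and 75.0 CPM in both controls (log2 fold change −4.81 ± 0.37, adjusted p = 2.2e-06). TRAF1, an adaptor of TNF receptors, had 3.37 and 3.10 CPM with 6-thio-dG, 183 and 92.8 CPM with BIBR1532 and 6.93 and 7.42 CPM in the control (log2 fold change −5.41 ± 0.41). SOD2, the mitochondrial superoxide dismutase, had 129 and 143 CPM with 6-thio-dG, 1913 and 1536 CPM with BIBR1532 and 1086 and 1045 CPM in the control (log2 fold change −3.67 ± 0.29). NFKBIA, the IkappaB alpha inhibitor, had 53.2 and 53.9 CPM with 6-thio-dG, against 607 and 445 CPM with BIBR1532 (log2 fold change −3.29 ± 0.34). RELA, a subunit that carries an activation domain, was not called, at 309 and 317 CPM with 6-thio-dG and 244 and 239 CPM with BIBR1532.

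NF-kappaB contacts DNA sites that read GGGA and TTCC with 2 bases of any kind between them. These letters, searched on both strands of the 250 bases before the start and chosen after the data had been seen, stood in 6 of 10 chemokine promoters (60%), 5 of 17 promoters of the NF-kappaB list (29.4%) and 1 of 23 cytokine promoters (4.35%), against 1.4% of the promoters of tested genes. The 90-base windows of RefSeq on GRCh38.p14 below belong to 4 of the genes just described, with the match in capitals. TNFAIP3 and IL6 are on the plus strand and CXCL2 and CXCL3 on the minus strand. In TNFAIP3 the match reads on the opposite strand.
TNFAIP3, chr6:137867152-137867241: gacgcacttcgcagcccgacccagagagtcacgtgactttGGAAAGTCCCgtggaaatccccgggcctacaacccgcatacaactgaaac
IL6, chr7:22727087-22727176: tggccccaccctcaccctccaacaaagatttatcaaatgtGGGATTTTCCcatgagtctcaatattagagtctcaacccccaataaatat
CXCL2, chr4:74099223-74099312: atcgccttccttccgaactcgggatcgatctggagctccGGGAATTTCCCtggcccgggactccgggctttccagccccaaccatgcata
CXCL3, chr4:74038718-74038807: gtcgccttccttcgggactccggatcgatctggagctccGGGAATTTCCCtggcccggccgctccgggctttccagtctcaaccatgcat
In CXCL2 and CXCL3 the capitals cover 2 overlapping matches in nearly the same surrounding sequence. PTX3, IL1B, TRAF1 and SOD2 held no match in their windows and fell with 6-thio-dG too.

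The BIBR1532 replicates differed from each other in the inflammatory genes. In BIBR1532 the median log2 difference of replicate 1 minus replicate 2 was 0.36 over cytokines, 0.42 over chemokines and 0.39 over the NF-kappaB list, against −0.022 over all symbol-named genes. With 6-thio-dG the same medians were −0.03, 0.12 and −0.04. The mitosis list did not show this shift, with −0.12 between the 6-thio-dG replicates and −0.06 between the BIBR1532 replicates. Without BIBR1532 replicate 1, the higher one, 17 cytokines, 7 chemokines and 13 NF-kappaB genes were still called lower.

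**Figure D4:**
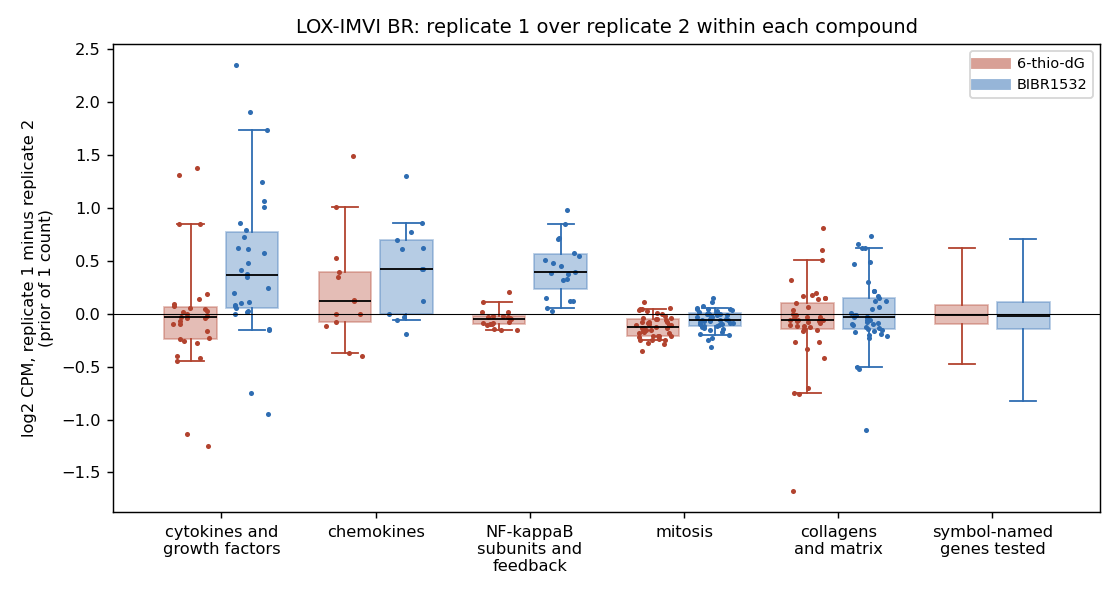
Log2 CPM of replicate 1 minus replicate 2 (vertical axis) for 5 gene lists and for all symbol-named genes, with 6-thio-dG left of BIBR1532 in each pair. Points are genes, boxes span the quartiles with a line at the median, and whiskers reach the 5th and 95th percentiles. In BIBR1532 the cytokines, chemokines and NF-kappaB genes lie above 0, at medians of 0.36, 0.42 and 0.39.

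Most genes of the extracellular matrix were called lower with 6-thio-dG, and their summed level with BIBR1532 stayed nearer to the control. Of 41 collagens and matrix genes, 26 were called lower (63.4%) and 1 higher (2.44%, median −1.53), against 14.8% and 5.53% of symbol-named genes. Their summed level was 2253 and 2369 CPM with 6-thio-dG, 10317 and 10509 CPM with BIBR1532 and 15348 and 14959 CPM in the control. COL1A1, a chain of fibrillar type I collagen, had 15.0 and 15.9 CPM with 6-thio-dG, 1405 and 1502 CPM with BIBR1532 and 1640.4 and 1618 CPM in the control. Both 6-thio-dG libraries stood far below the other 4, and the log2 fold change was −6.55 ± 0.40 (adjusted p = 4.93e-07). COL3A1, of type III collagen, had 1.48 and 2.55 CPM with 6-thio-dG, 131 and 112 CPM with BIBR1532 and 154 and 148 CPM in the control (log2 fold change −5.90 ± 0.42). COL6A3, of type VI collagen, had 0.842 and 1.14 CPM with 6-thio-dG, 54.5 and 61.0 CPM with BIBR1532 and 76.7 and 73.4 CPM in the control (log2 fold change −5.85 ± 0.40). FN1, fibronectin, had 28.0 and 33.6 CPM with 6-thio-dG, against 311 and 351 CPM with BIBR1532 (log2 fold change −3.42 ± 0.41, adjusted p = 6.04e-05). LOX, the lysyl oxidase that crosslinks collagen, was the member called higher, at 18.9 and 16.5 CPM with 6-thio-dG, 3.70 and 2.39 CPM with BIBR1532 and 9.19 and 9.51 CPM in the control (log2 fold change 2.55 ± 0.51, adjusted p = 0.00272), but not without BIBR1532 replicate 2. Of the 8 fibroblast markers, 5 were called lower (median −1.86), and their sum was 36.5 and 40.8 CPM with 6-thio-dG, 1602 and 1682 CPM with BIBR1532 and 1930.5 and 1898 CPM in the control, most of it COL1A1 in BIBR1532 and the control. DCN, decorin, another fibroblast marker, was at 1.24 and 1.28 CPM with 6-thio-dG and 2.81 and 1.87 CPM with BIBR1532. Whether fibroblasts had a part in the matrix genes was not tested.

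Metalloproteases, which cleave matrix, split. Of 24 tested with their inhibitors, 12 were called lower and 2 higher (median −1.22). MMP2, a gelatinase, had 151 and 155 CPM with 6-thio-dG, 913 and 932 CPM with BIBR1532 and 1687 and 1655 CPM in the control (log2 fold change −2.59 ± 0.33). MMP9, the other gelatinase, had 0.201 and 0.448 CPM with 6-thio-dG, 10.8 and 10.7 CPM with BIBR1532 and 25.1 and 19.4 CPM in the control (log2 fold change −5.00 ± 0.43, adjusted p = 3.85e-06). MMP3, stromelysin, went the other way at 49.7 and 51.8 CPM with 6-thio-dG, 1.64 and 0.842 CPM with BIBR1532 and 2.71 and 2.41 CPM in the control. It was among the largest rises of the comparison (log2 fold change 5.38 ± 0.46, adjusted p = 3.68e-06), and MMP1, the interstitial collagenase, was the other member called higher (log2 fold change 1.67 ± 0.44), a call lost with any 1 of the 4 libraries left out. Of 19 integrins, the receptors for matrix, 8 were called lower (42.1%) and 2 higher (10.5%), against 14.8% and 5.53% of symbol-named genes. ITGA5, the fibronectin receptor alpha chain, had 138 and 147 CPM with 6-thio-dG, against 426 and 438 CPM with BIBR1532 (log2 fold change −1.60 ± 0.32).

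Melanoma cells that lose melanocyte identity take on a dedifferentiated state marked by the receptor kinase AXL. Of 29 genes of that state, 15 were called lower with 6-thio-dG (51.7%) and 2 higher (6.9%, median −1.10), against 14.8% and 5.53% of symbol-named genes. AXL had 203 and 210.1 CPM with 6-thio-dG, 859 and 836 CPM with BIBR1532 and 442 and 427 CPM in the control, without overlap between the groups (log2 fold change −2.04 ± 0.28, adjusted p = 0.000155). WNT5A, a non-canonical Wnt ligand, had 101 CPM in both 6-thio-dG libraries, 745 and 685 CPM with BIBR1532 and 494 and 473 CPM in the control (log2 fold change −2.82 ± 0.32, adjusted p = 3.46e-05). NT5E, the ectonucleotidase CD73, was higher, at 219 and 219.6 CPM with 6-thio-dG, 82.0 and 63.1 CPM with BIBR1532 and 158 and 152 CPM in the control (log2 fold change 1.60 ± 0.37, adjusted p = 0.00716), a call lost without BIBR1532 replicate 2. The neural crest factor SOX9 was the other rise, at 51.0 and 55.8 CPM with 6-thio-dG and 17.9 and 20.4 CPM with BIBR1532, and its call was lost without 6-thio-dG replicate 2, BIBR1532 replicate 1 or BIBR1532 replicate 2. MITF, the master regulator of melanocytes, had 8.90 and 8.31 CPM with 6-thio-dG and 19.0 and 21.0 CPM with BIBR1532, a difference that was not called (log2 fold change −1.22 ± 0.49, adjusted p = 0.0915). MITF was called lower in 6 of 18 other settings. Of the 19 tested melanocyte genes, 5 were called lower (26.3%) and 2 higher (10.5%), against 14.8% and 5.53% of symbol-named genes. Both counts became 3 under upper-quartile scaling. The list's median of −0.04 turned to 0.31 under that scaling and to 0.21 with factors from symbol-named genes. Among the 5 was the cell cycle kinase CDK2, at 61.3 and 62.7 CPM with 6-thio-dG and 133 and 136 CPM with BIBR1532. The CDK2 call was lost with any 1 of the 4 libraries left out and under upper-quartile scaling. Without 6-thio-dG replicate 1, 6-thio-dG replicate 2, BIBR1532 replicate 1 or BIBR1532 replicate 2, the melanocyte genes called lower numbered 3, 3, 2 and 3.

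Some signal-dependent genes near the growth factor pathways were called lower with 6-thio-dG. Of 25 ERK feedback and output genes 11 were called lower (44%) and none higher (median −0.84). Of 29 immediate early genes 11 were called lower (37.9%) and none higher (median −0.72). Among symbol-named genes 14.8% were called lower and 5.53% higher. With upper-quartile factors the ERK genes had 9 lower and 1 higher (median −0.49), and the immediate early genes 8 lower (median −0.38). EGR1, an immediate early transcription factor, had 5.85 and 6.31 CPM with 6-thio-dG, 374.9 and 187 CPM with BIBR1532 and 12 and 11.7 CPM in the control (log2 fold change −5.53 ± 0.52, adjusted p = 8.31e-06). The EGF receptor ligand EREG had 31.4 and 29 CPM with 6-thio-dG, 369 and 312 CPM with BIBR1532 and 76.2 and 71.8 CPM in the control (log2 fold change −3.49 ± 0.30). MYC, the growth regulator, had 538 and 542 CPM with 6-thio-dG, 1166 and 938 CPM with BIBR1532 and 424 and 410.2 CPM in the control (log2 fold change −0.96 ± 0.28, adjusted p = 0.0262), a call lost with any 1 of the 4 libraries left out and with upper-quartile factors. In BIBR1532, replicate 1 minus replicate 2 had a median of 0.29 over the immediate early genes and 0.22 over the ERK genes.

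A part of the interferon-stimulated genes and of antigen presentation was called lower too. Of 44 interferon-stimulated genes, 19 were called lower (43.2%) and none higher (median −1.04). Of 17 genes of MHC class I presentation 10 were called lower (58.8%) and none higher (median −1.33). Among symbol-named genes 14.8% were called lower and 5.53% higher. GBP2, an interferon-induced GTPase, had 0.401 and 0.586 CPM with 6-thio-dG, 55.6 and 43.5 CPM with BIBR1532 and 27.1 and 25.7 CPM in the control (log2 fold change −6.62 ± 0.41, adjusted p = 4.93e-07). OAS1, which senses double-stranded RNA, had 0.722 and 0.828 CPM with 6-thio-dG, against 5.96 and 4.63 CPM with BIBR1532 (log2 fold change −2.76 ± 0.34). PSMB9, an immunoproteasome subunit, had 3.29 and 4.41 CPM with 6-thio-dG, 41.6 and 36.5 CPM with BIBR1532 and 26.8 and 26.5 CPM in the control (log2 fold change −3.34 ± 0.43, adjusted p = 0.000104). HLA genes are near-identical copies that can share reads. HLA-E, a ligand of inhibitory natural killer receptors, had the opposite order without being called, at 832 and 852 CPM with 6-thio-dG and 449 and 406 CPM with BIBR1532 (adjusted p = 0.0747). B2M, the class I light chain, was listed at 0 in all 4 libraries, which does not show its absence. CD274, the checkpoint ligand PD-L1, had 11.6 and 11.7 CPM with 6-thio-dG, 188 and 129 CPM with BIBR1532 and 27.6 and 24.9 CPM in the control (log2 fold change −3.76 ± 0.42, adjusted p = 3.51e-05). Without 6-thio-dG replicate 1, 5 of the class I genes were called lower.

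Stress pathways that answer amino acid shortage and misfolded protein held many genes called lower with 6-thio-dG, with BIBR1532 above the control in some genes and 6-thio-dG below it in others. Of 32 ATF4 targets and amino acid stress genes, 18 were called lower (56.25%) and 1 higher (3.1%, median −1.21), against 14.8% and 5.53% of symbol-named genes. CHAC1, which degrades glutathione, had 2.97 and 3.62 CPM with 6-thio-dG, 68.7 and 78.5 CPM with BIBR1532 and 4.17 and 4.14 CPM in the control, so that BIBR1532 alone stood apart (log2 fold change −4.48 ± 0.38, adjusted p = 4e-06). PSAT1, of serine synthesis, had 38.3 and 36.2 CPM with 6-thio-dG, 191 and 157 CPM with BIBR1532 and 48.1 and 47.7 CPM in the control (log2 fold change −2.22 ± 0.27). DDIT4, an inhibitor of mTORC1, had 11.2 and 10.8 CPM with 6-thio-dG, 299.7 and 278 CPM with BIBR1532 and 368 and 353 CPM in the control, so that 6-thio-dG alone stood apart (log2 fold change −4.71 ± 0.38, adjusted p = 2.9e-06). The ATF4 transcript itself was not called, at 1400.5 and 1461 CPM with 6-thio-dG and 1087 and 1038 CPM with BIBR1532. SLC3A2, the heavy chain of amino acid exchangers, was the member called higher, at 1353 and 1323 CPM with 6-thio-dG, 622 and 529 CPM with BIBR1532 and 192 and 188 CPM in the control, a call lost with any 1 of the 4 libraries left out. Of 22 endoplasmic reticulum chaperones, 12 were called lower (54.5%) and none higher (median −1.08). HSPA5, the chaperone BiP, had 387 and 405 CPM with 6-thio-dG, 2022 and 1959 CPM with BIBR1532 and 2267 and 2169.7 CPM in the control (log2 fold change −2.33 ± 0.26, adjusted p = 2.9e-05). Without 6-thio-dG replicate 1, 6-thio-dG replicate 2, BIBR1532 replicate 1 or BIBR1532 replicate 2, the chaperones called lower numbered 4, 7, 7 and 9.

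Metabolic lists held genes called lower with 6-thio-dG as well. Of 19 genes of fatty acid synthesis and desaturation, 10 were called lower with 6-thio-dG (52.6%, median −0.99), against 14.8% of symbol-named genes. Of 26 genes of cholesterol synthesis, 8 were called lower (30.8%, median −0.65), and neither list had a gene called higher. GPAM, which starts glycerolipid synthesis, had 56.0 and 57.5 CPM with 6-thio-dG, 543 and 631 CPM with BIBR1532 and 514 and 496 CPM in the control (log2 fold change −3.37 ± 0.57, adjusted p = 0.00099). SCD, the stearoyl-CoA desaturase, had 173 and 174 CPM with 6-thio-dG, 654 and 704 CPM with BIBR1532 and 1529.8 and 1470.0 CPM in the control, so that both treatments lay below the control and 6-thio-dG lay lowest (log2 fold change −1.97 ± 0.28). VEGFA, the hypoxia-induced angiogenic factor, had 14.2 and 12.9 CPM with 6-thio-dG, 183 and 164 CPM with BIBR1532 and 254 and 260.2 CPM in the control (log2 fold change −3.68 ± 0.32). Of 23 genes of glucose transport and glycolysis, 5 were called lower (21.7%, against 14.8% of symbol-named genes; median −0.60), among them LDHA, lactate dehydrogenase, at 742 and 758 CPM with 6-thio-dG, 1549 and 1657 CPM with BIBR1532 and 4578 and 4257 CPM in the control. The LDHA call was lost with any 1 of the 4 libraries left out, with upper-quartile factors and with the GC trend removed. Without 6-thio-dG replicate 1, 6-thio-dG replicate 2, BIBR1532 replicate 1 or BIBR1532 replicate 2, the fatty acid genes called lower numbered 3, 5, 5 and 5, the cholesterol genes 3, 3, 4 and 3, and the glycolytic genes 0, 0, 2 and 1. With upper-quartile factors 6, 4 and 1 were called lower in these 3 lists, and 2 cholesterol genes were called higher.

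Cytosolic heat shock genes had calls on the higher side alone in the fit of all 12 libraries. Of 28 tested, 5 were called higher with 6-thio-dG (17.9%) and none lower (median 0.26), against 5.53% higher among symbol-named genes. The 4 compound libraries alone gave 15 higher and 5 lower, and leaving out both A375 controls gave 11 higher and 2 lower. HSPA8, the constitutive chaperone HSC70, had 5566 and 5614 CPM with 6-thio-dG, 476 and 745 CPM with BIBR1532 and 4802 and 4622 CPM in the control. The 6-thio-dG libraries lay near the control and the BIBR1532 libraries far below both, and the log2 fold change of 6-thio-dG over BIBR1532 was 3.19 ± 0.31 (adjusted p = 9.72e-06). HSPA1A, an inducible HSP70, had 133 CPM in both 6-thio-dG libraries, 13.5 and 19.6 CPM with BIBR1532 and 62.3 and 56.7 CPM in the control, with 6-thio-dG above the control and BIBR1532 below it (log2 fold change 3.01 ± 0.34, adjusted p = 4.06e-05). HSPA1B, a near-identical copy that can share its reads, gave 2.71 ± 0.33, and HSPA6, a strictly inducible HSP70, had 31 counts with 6-thio-dG and 2 with BIBR1532, a ratio of 10.3 with a 95% counting interval of 2.63 to 89.1. The HSPA6 call was lost without 6-thio-dG replicate 2, BIBR1532 replicate 1 or BIBR1532 replicate 2. FKBP4, a cochaperone of HSP90, was at 269.6 and 276 CPM with 6-thio-dG and 111 and 132 CPM with BIBR1532, a call lost with any 1 of the 4 libraries left out and under a replicate block. HSP90AA1 itself was not called, at 3279 and 3314 CPM with 6-thio-dG and 3018 and 3550.4 CPM with BIBR1532. Leaving out 6-thio-dG replicate 1 left 4 members called higher, and leaving out any 1 of the other 3 libraries left 3, while 9 were called higher with upper-quartile factors and 13 with the GC trend removed.

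Heat shock factors read inverted repeats of the form TTCNNGAA. This run stood in 3 of 24 heat shock promoters with an entry (12.5%), against 5.21% of the promoters of tested genes, on either strand of the 250 bases before the start. HSPA8 is shown because it was called and its promoter holds matches, in a RefSeq window of 90 bases on GRCh38.p14, minus strand, with 1 of 2 matches in capitals.
HSPA8, chr11:123062143-123062232: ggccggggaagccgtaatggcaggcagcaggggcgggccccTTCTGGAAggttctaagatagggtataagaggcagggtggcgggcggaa
HSPA1A and HSPA1B held no match to these letters in that window, though both rose.

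Targets of p53 went in both directions. Of 42 tested, 4 were called higher (9.52%) and 10 lower (23.8%), against 5.53% and 14.8% of symbol-named genes. The median was 0.20, above that of symbol-named genes. PHLDA3, an inhibitor of AKT, had 341 and 332 CPM with 6-thio-dG, 114 and 126 CPM with BIBR1532 and 102 and 105 CPM in the control (log2 fold change 1.49 ± 0.35, adjusted p = 0.00734), a call lost without either BIBR1532 library. MDM2, the ubiquitin ligase of p53, had 483 and 474 CPM with 6-thio-dG, 188 and 223 CPM with BIBR1532 and 104 and 108 CPM in the control, without being called (log2 fold change 1.22 ± 0.44, adjusted p = 0.0649). MDM2 was called higher in 7 of 18 other settings. GDF15, a stress-secreted TGF-beta family member, had 355 and 338 CPM with 6-thio-dG and 339.7 and 273 CPM with BIBR1532, against 44.3 and 43.0 CPM in the control. The treatments overlapped for GDF15 and both stood well above the control. CD82, a tetraspanin, was lower at 6.94 and 6.62 CPM with 6-thio-dG, 148 and 136 CPM with BIBR1532 and 88.4 and 83.4 CPM in the control (log2 fold change −4.39 ± 0.44, adjusted p = 1.38e-05). TNFRSF10B, the TRAIL receptor DR5, had 167 and 166 CPM with 6-thio-dG, against 548 and 518 CPM with BIBR1532 (log2 fold change −1.68 ± 0.29). The counts depended on the libraries and the scaling. Without 6-thio-dG replicate 1 or 6-thio-dG replicate 2, 1 member was called higher, without BIBR1532 replicate 1 or BIBR1532 replicate 2 none was, the members called lower numbered 6 to 8, and upper-quartile factors gave 11 higher and 8 lower. With the GC trend removed 20 were higher and 10 lower. Without either A375 6-thio-dG library, 8 members were called higher.

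Other genes higher with 6-thio-dG were scattered. OSGIN1, an NRF2 target of oxidative stress, had 33.6 and 31.6 CPM with 6-thio-dG, 8.22 and 7.86 CPM with BIBR1532 and 2.61 and 3.14 CPM in the control (log2 fold change 2.02 ± 0.33, adjusted p = 0.000653). The largest rise among genes at 5 CPM or more was GUCA1B, a calcium sensor of photoreceptor guanylate cyclase, at 21.5 and 21.3 CPM with 6-thio-dG, 0.137 and 0.562 CPM with BIBR1532 and 1.41 and 0.956 CPM in the control (log2 fold change 5.80 ± 0.48, adjusted p = 3.29e-06). CMYA5, a muscle protein of the costamere, had 18.6 and 18.3 CPM with 6-thio-dG, against 0.343 and 0.374 CPM with BIBR1532 (log2 fold change 5.65 ± 0.76, adjusted p = 0.000184). MUC6, a gastric mucin, had 6.26 and 5.90 CPM with 6-thio-dG, against 0.0685 and 0.515 CPM with BIBR1532 (log2 fold change 4.21 ± 0.52). PVRL4, the adhesion protein nectin-4, had 6.02 and 6.35 CPM with 6-thio-dG, 0.548 and 0.515 CPM with BIBR1532 and 0.552 and 0.137 CPM in the control (log2 fold change 3.53 ± 0.46, adjusted p = 0.000125). These genes are usually found in other tissues, and their levels in LOX-IMVI BR were low in the control. Of 60 cytosolic ribosomal protein genes, 9 were called higher and none lower (median 0.48), but without 6-thio-dG replicate 1, 6-thio-dG replicate 2 or BIBR1532 replicate 1 this number was 2, and without BIBR1532 replicate 2 it was 1. With the GC trend removed it was 14. In the fit of all 12 libraries, 9 of 60 is 15%, against 5.53% of symbol-named genes called higher. The ribosomal proteins together had 40524 and 41809 CPM with 6-thio-dG, 31156 and 30274 CPM with BIBR1532 and 52359 and 50865 CPM in the control. Ribosomal protein genes have many processed pseudogenes that can take part of their reads.

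The telomerase genes themselves gave no call between the treatments in the fit of all 12 libraries. TERT had 13.0 and 12.7 CPM with 6-thio-dG, 13.9 and 14.2 CPM with BIBR1532 and 9.29 and 12 CPM in the control (log2 fold change −0.13 ± 0.42, adjusted p = 0.884), and its sign turned with upper-quartile factors (0.22) and with factors from symbol-named genes (0.12). Of 11 genes of telomerase and its assembly none was called by edgeR, none had an unadjusted p under 0.05, and DESeq2 called none. Other edgeR fits did call some of these 11: 2 higher with the GC trend removed, 1 higher and 2 lower without both A375 controls, and 3 higher and 4 lower in the 4 compound libraries alone. Of 13 genes of shelterin and end protection edgeR called none, 4 had an unadjusted p under 0.05 (2 higher and 2 lower), and DESeq2 called 1 lower. Without A375 6-thio-dG replicate 1 or A375 6-thio-dG replicate 2, edgeR called 1 of these end-protection genes higher and 2 lower. It called 3 of them higher with upper-quartile factors, 4 higher and 1 lower with the GC trend removed, and 4 higher and 5 lower in the 4 compound libraries alone. The telomerase genes together had 893 and 940 CPM with 6-thio-dG, 1014 and 1023 CPM with BIBR1532 and 1038 and 1007 CPM in the control. Ribosome biogenesis (44 genes) and the proteasome (29 genes) also had no called member with edgeR, with 5 and 1 genes at an unadjusted p under 0.05. For the proteasome DESeq2 called 1 member lower, and for ribosome biogenesis it called none. Without A375 6-thio-dG replicate 1 or A375 6-thio-dG replicate 2, edgeR called 3 ribosome biogenesis genes higher and 2 lower and 2 proteasome genes lower. For ribosome biogenesis, 4 were called higher with upper-quartile factors and 4 with symbol-named genes alone, 9 higher and 1 lower with the GC trend removed, and 22 higher and 11 lower in the 4 compound libraries alone. For the proteasome, 2 were called higher with the GC trend removed, and 5 higher and 10 lower in the 4 compound libraries alone.

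Genes that handle purines and thiopurines, the chemical class of 6-thio-dG, showed 9 members called lower (24.3%) and 3 higher (8.11%) of 37 (median −0.54), against 14.8% and 5.53% of symbol-named genes. Upper-quartile factors gave 1 lower and 4 higher. AMPD3, an AMP deaminase, had 3.13 and 2.76 CPM with 6-thio-dG, 24.7 and 22.3 CPM with BIBR1532 and 11.3 and 12.3 CPM in the control (log2 fold change −2.99 ± 0.30, adjusted p = 1.38e-05). HPRT1, which salvages thiopurine bases, was not called, at 43.6 and 43.4 CPM with 6-thio-dG and 60.1 and 66.4 CPM with BIBR1532. Leaving out 6-thio-dG replicate 1, 6-thio-dG replicate 2 or BIBR1532 replicate 1 left 1 member called lower and leaving out BIBR1532 replicate 2 left 2, while without A375 6-thio-dG replicate 1 or A375 6-thio-dG replicate 2 it was 18.

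Finally, the difference between the compounds in LOX-IMVI BR was set against that in A375, in the same fit. Beside the 5999 genes called in LOX-IMVI BR, 4664 genes (16%) were called in A375, 2115 higher with 6-thio-dG (7.26%) and 2549 lower (8.76%). Of the symbol-named genes, 2387 were called in A375 (16.6%), 741 higher (5.14%) and 1646 lower (11.4%). In all, 690 genes (2.37%) had a difference that itself differed between the lines, 340 higher in LOX-IMVI BR (1.17%) and 350 lower (1.2%). For genes with a symbol these shares were 1.53% and 1.74%, and 3.27% in either direction. The 690 genes became 4005 without A375 6-thio-dG replicate 1 and 1313 without A375 6-thio-dG replicate 2. They became 188 without LOX-IMVI BR 6-thio-dG replicate 1, 195 without 6-thio-dG replicate 2, 208 without BIBR1532 replicate 1 and 183 without BIBR1532 replicate 2. Across the 14419 symbol-named genes, the log2 fold changes of the lines had a Pearson correlation of 0.396 and a Spearman correlation of 0.395, as a description across genes, which are not independent.

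A part of the mitotic genes differed between the lines. Against 44 of 45 in LOX-IMVI BR, 17 members were called lower in A375 (median −0.90), and for 16 members the difference between the lines was called, all with the larger fall in LOX-IMVI BR. Without A375 6-thio-dG replicate 1 this was 39 members and without A375 6-thio-dG replicate 2 it was 14. KIF20A had a log2 fold change of −4.26 in LOX-IMVI BR and −1.74 in A375, where it stood at 13.4 and 15.9 CPM with 6-thio-dG and 49.96 and 48.2 CPM with BIBR1532 (difference −2.52 ± 0.40, adjusted p = 0.00428), a call lost without LOX-IMVI BR 6-thio-dG replicate 1. For PLK1 the log2 fold change was −4.18 in LOX-IMVI BR and −2.31 in A375 (difference −1.87 ± 0.40, adjusted p = 0.0214), a call lost with any 1 of the 4 LOX-IMVI BR libraries left out, under a replicate block and with upper-quartile factors. Of the 48 replication genes none differed between the lines in edgeR (11 at an unadjusted p under 0.05, and 3 called by DESeq2), but 14 did without A375 6-thio-dG replicate 1 and 6 without A375 6-thio-dG replicate 2, with the larger fall in LOX-IMVI BR.

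Of the 30 cytokines, 18 were called lower in LOX-IMVI BR and 14 in A375 (median −1.55), and the change differed between the lines for 3 that were higher and 5 that were lower in LOX-IMVI BR. Without A375 6-thio-dG replicate 1 these were 6 and 8, and without A375 6-thio-dG replicate 2 they were 4 and 3. IL1B fell less in LOX-IMVI BR than in A375 (difference 2.64 ± 0.41, adjusted p = 0.0036), while LIF fell more (difference −2.92 ± 0.45, adjusted p = 0.00365). For IL6 the log2 fold changes were −7.82 in LOX-IMVI BR and −6.57 in A375, and the difference was not called (−1.25 ± 0.54, adjusted p = 0.292). Among the NF-kappaB genes 12 of 19 were called lower in A375, and 4 differed between the lines, with the larger fall in LOX-IMVI BR, such as TNFAIP3 (difference −2.17 ± 0.46, adjusted p = 0.0214). The TNFAIP3 call was lost under a replicate block and without either LOX-IMVI BR 6-thio-dG library or BIBR1532 replicate 1. Without A375 6-thio-dG replicate 1 and A375 6-thio-dG replicate 2, these NF-kappaB genes numbered 9 and 6. Of the 28 heat shock genes, 11 were called higher and none lower in A375 (median 1.00), beside 5 higher in LOX-IMVI BR (median 0.26). The share of symbol-named genes called higher in A375 was 5.14%. None of the 28 heat shock genes differed between the lines in edgeR (6 at an unadjusted p under 0.05, and 1 called by DESeq2). Without A375 6-thio-dG replicate 1 the change was lower in LOX-IMVI BR for 9 heat shock genes and higher for 1. HSPA1A was higher with 6-thio-dG in A375 too, at 224 and 165 CPM, against 22.5 and 21.8 CPM with BIBR1532 (log2 fold change 3.14), and HSPA8 was at 4966 and 5202 CPM, against 1034 and 1037 CPM. MMP3 rose by a log2 fold change of 5.38 in LOX-IMVI BR and 5.47 in A375.

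Matrix genes were called lower in A375 in 25 of 41 cases (median −1.74), beside 26 in LOX-IMVI BR. The change differed between the lines for 5 that were higher and 4 that were lower in LOX-IMVI BR, for 8 and 6 without A375 6-thio-dG replicate 1 and for 3 and 7 without A375 6-thio-dG replicate 2. COL1A1 had 4.59 and 2.08 CPM with 6-thio-dG and 4.57 and 3.54 CPM with BIBR1532 in A375, and its difference between the lines was −6.26 ± 0.50 (adjusted p = 3.5e-05). COL6A3 fell in both, by a log2 fold change of −5.85 in LOX-IMVI BR and −4.77 in A375 (difference not called, adjusted p = 0.287). NT5E, higher with 6-thio-dG in LOX-IMVI BR, was lower in A375, at 19.0 and 46.5 CPM with 6-thio-dG and 108 and 127 CPM with BIBR1532, and the difference between the lines was 3.44 ± 0.53 (adjusted p = 0.00349). BMF, a pro-apoptotic BCL2 family member, had 0.682 and 0.759 CPM with 6-thio-dG and 4.25 and 4.21 CPM with BIBR1532 in LOX-IMVI BR, but 27.9 and 17.6 CPM with 6-thio-dG and 6.91 and 6.64 CPM with BIBR1532 in A375 (difference −4.29 ± 0.47, adjusted p = 0.000286). VEGFA fell by more in LOX-IMVI BR (difference −2.73 ± 0.41, adjusted p = 0.00325).

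**Figure D5:**
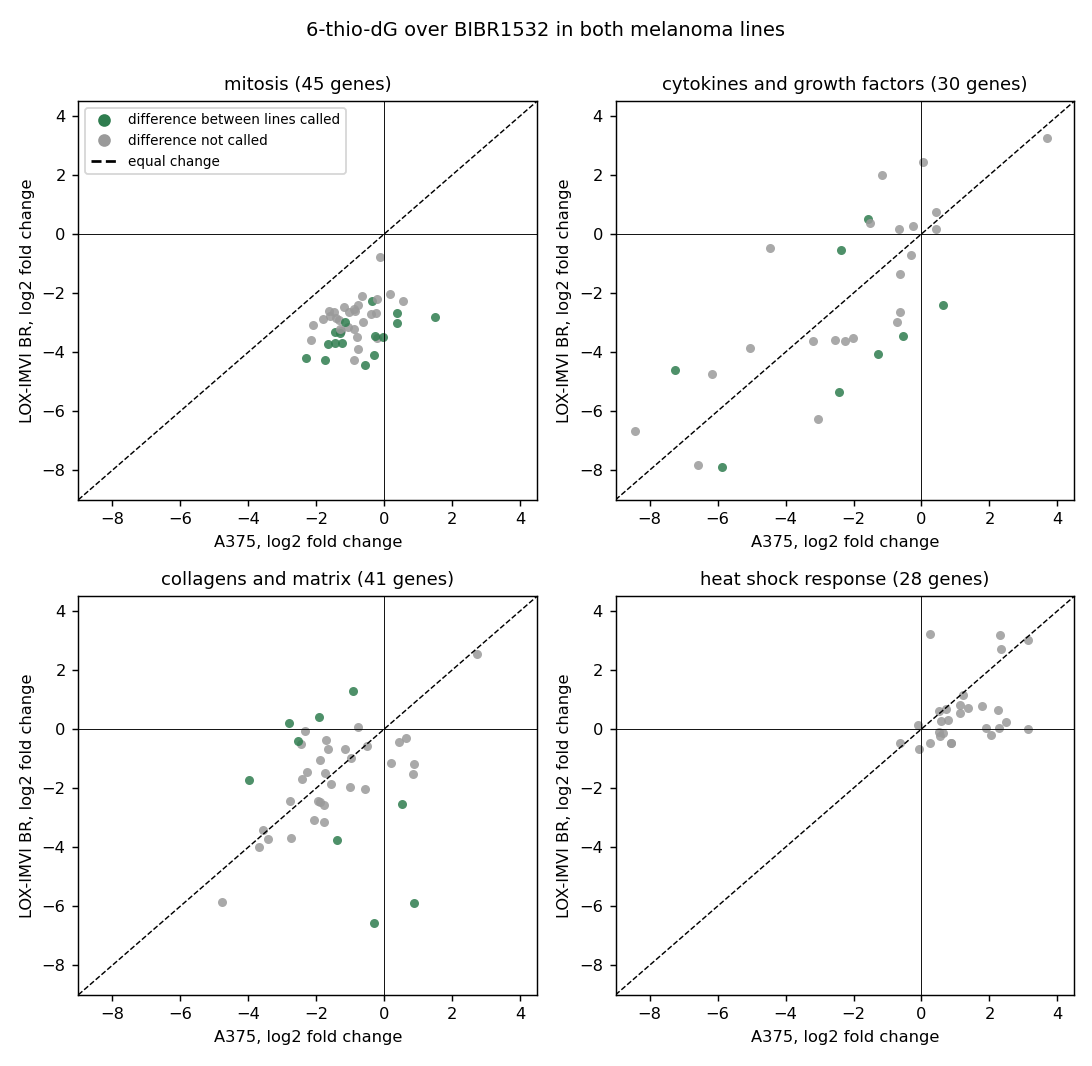
Log2 fold change of 6-thio-dG over BIBR1532 in A375 (horizontal axis) and LOX-IMVI BR (vertical axis) for the tested genes of 4 lists. Green points are genes whose difference between the lines was called, grey points the others, and the dashed line marks equal change. The 16 mitotic genes called lie below the line, and heat shock genes (0 called) have no green point.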

How the data were processed

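The authors deposited 1 table of raw whole-number counts per gene for the 12 libraries. Per the submitters' processing notes, featureCounts 1.5.1, STAR, GATK and Picard were used with hg19 and GRCh37. Which step used each is not given in the sources used here. Of 75253 entries, 4 with date-like names were dropped. The kit did not mark strand, so antisense and overlapping genes share reads.

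Counts were tested with edgeR 4.0.16 (R 4.3.3; limma 3.58.1, DESeq2 1.42.0): filterByExpr, TMM, and 1 mean per line and treatment in a robust quasi-likelihood fit of all 12 libraries, with Benjamini-Hochberg adjustment over 29114 genes. CPM are TMM-scaled. The steps were tested on simulated data. Intervals of ratios are exact and cover counting error only.

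The comparison, 48 gene lists, alternatives and naming rule were chosen with earlier results of these data known. The rule took the 10 largest called rises and falls at 5 CPM or more, up to 4 called members per list with the smallest adjusted p, the 5 largest differences between the lines each way, and TERT, CDKN1A, MDM2, MYC, MITF, AXL and GDF15. Other genes were named after their values were seen: TOP2A, MKI67, BUB3, CCNB2, CDC20, CXCL6, TNFSF10, BMP4, NFKBIA, RELA, FN1, LOX, MMP1, MMP2, SOX9, HLA-E, B2M, SLC3A2, ATF4, FKBP4, HSP90AA1, PHLDA3, HPRT1, and the marker genes TYR, PMEL, PAX3, CD3E, CD68, PECAM1, COL1A2 and DCN. Some genes that the rule named are not reported here. Promoters came from RefSeq, matched by symbol for 11017 of 14419 tested symbol-named genes.

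Alternatives were DESeq2's test and size factors, upper-quartile factors, symbol-named genes alone, other low-count filters, fewer libraries, a GC trend removed by a spline, a replicate block and leaving out each of the 4 libraries. Leaving out both A375 controls or either A375 6-thio-dG library was added after seeing the data.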

Additional observations from a re-analysis of the deposited data

Results flagged for a closer look

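The difference between 6-thio-dG and BIBR1532 itself differed between LOX-IMVI BR and A375, by edgeR's test of that difference, for 39 of the genes reported here. Differences are on the log2 scale, LOX-IMVI BR minus A375, with Benjamini-Hochberg adjusted p, and they were lower in LOX-IMVI BR for 31 genes and higher for 8. With LOX-IMVI BR 6-thio-dG replicate 1, 6-thio-dG replicate 2, BIBR1532 replicate 1 or BIBR1532 replicate 2 left out, 16, 22, 22 and 24 of the 39 were called, and 30 were under a replicate block.

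The fall was larger in LOX-IMVI BR for PTX3 (−2.02, adjusted p = 0.0481) and for GBP2 (−3.91, adjusted p = 0.00109). The PTX3 call was lost without either 6-thio-dG library or BIBR1532 replicate 1 of LOX-IMVI BR, and without A375 6-thio-dG replicate 2. It was also lost with DESeq2 size factors, upper-quartile factors, symbol-named genes alone and a filter of at least 1 CPM in 2 libraries. A replicate block, the compound libraries of both lines without any control and leaving out both A375 controls lost it too. GBP2 in A375 was at 2.59 and 4.16 CPM with 6-thio-dG and 20.6 and 24.1 CPM with BIBR1532. The collagens COL1A1 (−6.26, adjusted p = 3.5e-05) and COL3A1 (−6.78, adjusted p = 4.07e-05) fell in LOX-IMVI BR and were at or under 4.59 CPM in all 4 A375 libraries of the compounds. Among the genes of mitosis, the differences were −2.52 for KIF20A, −1.87 for PLK1, −2.25 for AURKA, −2.43 for CCNB1, −1.86 for CCNB2 and −3.86 for TOP2A. The calls of PLK1, AURKA, CCNB2 and TOP2A were lost with any 1 of the 4 LOX-IMVI BR libraries left out. The CCNB1 call was lost without either 6-thio-dG library or BIBR1532 replicate 2. The TOP2A call was also lost with symbol-named genes alone and with the compound libraries of both lines without any control. Leaving out A375 6-thio-dG replicate 2 or both A375 controls lost it as well. A filter of at least 1 CPM in 2 libraries lost it too. The cell cycle inhibitor CDKN2C had −2.93, and BRIP1 of DNA repair had −3.73. Among cytokines and NF-kappaB genes they were −2.92 for LIF, −2.17 for TNFAIP3, −2.66 for TRAF1 and −2.61 for SOD2, while IL1B had 2.64. Stress and metabolic genes gave −2.04 for CHAC1, −3.58 for DDIT4, −3.95 for GPAM, −1.62 for SCD, −2.73 for VEGFA and −4.53 for ADM. BMF had −4.29, CD82 −2.36, OAS1 −2.06, HBEGF −2.72 and CYP1B1 −3.43. The calls of CHAC1, GPAM, SCD, CD82 and OAS1 were lost with any 1 of the 4 LOX-IMVI BR libraries left out. Those of BRIP1, TRAF1, HBEGF and CYP1B1 were lost without either LOX-IMVI BR 6-thio-dG library, and that of CDKN2C without 6-thio-dG replicate 1. TRAF1 and HBEGF also lost theirs without BIBR1532 replicate 1, and CYP1B1 without BIBR1532 replicate 2. Upper-quartile factors and a replicate block lost those of CHAC1, SCD, CD82 and OAS1.

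P2RY6, a receptor for uridine nucleotides, had a difference of −10.16 (adjusted p = 2.71e-05): in LOX-IMVI BR it was at 0.241 and 0.103 CPM with 6-thio-dG and 28.2 and 30.8 CPM with BIBR1532, and in A375 at 1.59 and 0.739 CPM with 6-thio-dG and 0.0897 and 0.242 CPM with BIBR1532. PTGES, prostaglandin E synthase, had −8.65 (adjusted p = 3.93e-05), with 2 counts with 6-thio-dG and 188 with BIBR1532 in LOX-IMVI BR, but 12.03 and 7.32 CPM with 6-thio-dG and 3.05 and 2.86 CPM with BIBR1532 in A375. C11orf86 had −9.22 (adjusted p = 4.24e-05), with 11.4 and 5.44 CPM with 6-thio-dG and 0.448 and 0.582 CPM with BIBR1532 in A375. KLF17 had −6.77 (adjusted p = 0.0247), a call lost without A375 6-thio-dG replicate 2 (adjusted p = 0.154) and without LOX-IMVI BR 6-thio-dG replicate 1, BIBR1532 replicate 1 or BIBR1532 replicate 2.

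Of the 8 genes higher in LOX-IMVI BR, PVRL4 had a difference of 3.70 (adjusted p = 0.00429). In A375 it was at 103 and 61.3 CPM with 6-thio-dG and 96.0 and 89.5 CPM with BIBR1532. NT5E had 3.44 and MMP1 2.27, and the MMP1 call was lost with any 1 of the 4 LOX-IMVI BR libraries left out. A group of 4 genes had few counts in LOX-IMVI BR, so their fitted folds there depend on the prior count: COL22A1 (11.10, adjusted p = 0.00275), C15orf48 (10.66, adjusted p = 0.0222), ACAN (6.94, adjusted p = 0.00118) and SPRR2D (6.86, adjusted p = 0.0382). In A375 all 4 were lower with 6-thio-dG in CPM, as ACAN, aggrecan, at 0.418 and 0.403 CPM with 6-thio-dG and 44.9 and 43.5 CPM with BIBR1532. Without LOX-IMVI BR 6-thio-dG replicate 1 the calls of COL22A1 (adjusted p = 0.14), C15orf48 and SPRR2D were lost, and those of C15orf48 and SPRR2D also without either BIBR1532 library of LOX-IMVI BR.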

How the results depend on the processing

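In the direct comparison, upper-quartile factors gave 4595 genes higher and 2017 lower (symbol-named: 1331 and 1346), and 69.5% of calls were then higher, against 48.0%. Symbol-named genes alone gave 2655 calls, 1184 higher and 1471 lower. The 6 libraries of LOX-IMVI BR alone gave 16112 calls, 8160 higher and 7952 lower (symbol-named: 3462 and 5951), and the 4 compound libraries 15593, 7858 higher and 7735 lower (symbol-named: 3318 and 5823), on spreads of 4.55% and 5.31%. Removing the GC trend gave 2111 symbol-named genes higher, 2397 lower and 1505 genes that differed between the lines. No low-count filter gave 1634 of the latter kind. Without both A375 controls, chosen after seeing the data, 1501 symbol-named genes were higher and 1438 genes differed between the lines. DESeq2's test called 4982 genes, 1966 higher and 3016 lower.

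Leaving out 1 library of LOX-IMVI BR or 1 A375 6-thio-dG library gave 2447 to 9432 calls, 785 to 4272 higher and 1317 to 5174 lower. Symbol-named genes ranged from 253 to 1315 higher and from 909 to 3693 lower, and differences between the lines from 183 to 4005. Correlations of the differences between replicates were 0.0375, 0.0122 and 0.0518 over 17188 genes. Counting noise makes up a large part of these differences, so such low values cannot decide whether replicate numbers pair the samples. The keratinocyte markers KRT1, KRT5, KRT10, KRT14 and TP63 were higher in replicate 1 in each LOX-IMVI BR group. DSG3 was higher in replicate 2. KRT1 was at 9.10 and 4.31 CPM with 6-thio-dG, 8.84 and 5.33 CPM with BIBR1532 and 7.73 and 5.28 CPM in the control. The source of this pattern was not tested. A replicate block gave 5053 calls and 449 differences between the lines. Of the 172 named genes, 163 kept their side of the threshold with the block, 169 with DESeq2's test, 150 with upper-quartile factors and 136 to 142 with 1 LOX-IMVI BR library left out.

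The sign of a log2 fold change turned for TERT with upper-quartile factors (0.22) and symbol-named genes alone (0.12). In genes with few counts, it turned without 6-thio-dG replicate 1 for ACAN (−0.10) and SPRR2D (−2.41), and without BIBR1532 replicate 2 for ACAN (−0.082). For C15orf48 the value without 6-thio-dG replicate 1 was 0.00. With 1 library left out, log2 fold changes ranged up to 4.27 for C15orf48, 0.48 for ACAN and 3.30 for SPRR2D. The cause of these changes was not tested. With 2 libraries per group, depth limits genes of few counts most.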

Other observations

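Some gene groups not described above held single large differences. Beside their counts, 14.8% of symbol-named genes were called lower and 5.53% higher. Of 14 EGF family ligands and receptors, 5 were called lower with 6-thio-dG and 1 higher (median log2 fold change −0.57), and with any 1 of the 4 libraries left out 3 were called lower and none higher. HBEGF, a heparin-binding ligand, had 3.29 and 2.69 CPM with 6-thio-dG, 43.3 and 30.1 CPM with BIBR1532 and 6.53 and 5.92 CPM in the control. Of 24 YAP and TEAD genes, 8 were called lower (33.3%) and none higher (median −0.72). Without 6-thio-dG replicate 1, 6-thio-dG replicate 2, BIBR1532 replicate 1 or BIBR1532 replicate 2 these were 5, 4, 5 and 6. CYR61, a matricellular protein, had 771 and 787 CPM with 6-thio-dG, 3473 and 2839 CPM with BIBR1532 and 875 and 845 CPM in the control. Of 20 cytosolic aminoacyl-tRNA synthetases, which charge transfer RNAs, 7 were called lower (35%) and none higher (median −0.67). AARS, for alanine, had 234 and 248 CPM with 6-thio-dG, 908 and 792 CPM with BIBR1532 and 327 and 322 CPM in the control. With any 1 of the 4 libraries left out, 2 of the synthetases were called lower, as with upper-quartile factors.

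Hypoxia targets held 7 genes called lower (30.4%) and 1 higher (4.35%) of 23 (median −0.52), against 14.8% and 5.53% of symbol-named genes. Leaving out the same libraries in that order gave 5, 4, 4 and 6 lower, and the median was −0.021 with the GC trend removed, with 4 higher and 7 lower. ADM, the vasodilator adrenomedullin, had 85.8 and 82.4 CPM with 6-thio-dG, 1105 and 771 CPM with BIBR1532 and 386 and 372 CPM in the control, a log2 fold change of −3.48 ± 0.33. In A375 ADM had the opposite order, at 49.8 and 33.1 CPM with 6-thio-dG and 20.0 and 20.1 CPM with BIBR1532, and the difference between the lines was −4.53 (edgeR, adjusted p = 0.000114). CYP1B1, a cytochrome induced through the aryl hydrocarbon receptor, had 0.722 and 0.517 CPM with 6-thio-dG, 18.5 and 19.7 CPM with BIBR1532 and 9.54 and 10.01 CPM in the control. TYRP1, a melanosome enzyme, was low throughout, at 0.602 and 0.241 CPM with 6-thio-dG, 5.41 and 4.68 CPM with BIBR1532 and 1.31 and 0.819 CPM in the control. Of 5 leukocyte markers tested, 1 was called higher and 1 lower (20% each, against 5.53% and 14.8% of symbol-named genes). The lower one was ITGAM, with 3 counts with 6-thio-dG and 45 with BIBR1532, a ratio of 22.5 (95% counting interval 7.22 to 113), and the higher one was PTPRC, with 97 and 6 counts. ADM, ITGAM, PTPRC and the other genes of this section were named by the rule or after their values were seen.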
